A study of Mus musculus with 18 samples.

Results

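The 7 genes described here encode proteins of the eosinophil granule: *Prg2*, *Prg3*, *Epx*, *Ear1*, *Ear2*, *Ear6* and *Ear10*. They were chosen by name, with their high levels in reprogrammed fibroblasts already known, so those levels are given as a description and carry no test. Of 20495 rows in the table of fibroblast libraries, 7 hold these genes, 2 of them under a joint name (*Ear2* with *Ear3*, and *Ear6* with *Ear7*), so that the joined genes could not be told apart there. Of 20310 genes in the table of differentiation stages, 7 are the same genes, each with its own name and 1 transcription start site (TSS).

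The series holds 18 RNA-seq samples of mouse cells, all of strain 129. Mouse embryonic fibroblasts (MEFs), taken at E14.5, gave 8 single libraries: untreated cells (uFIB) and cells labelled SL (Scl, the protein of *Tal1*, and Lmo2), SFGL (Scl, Fli1, Gata2 and Lmo2) and FGL (Fli1, Gata2 and Lmo2), each at day 12 and at day 21. The labels allow either wild-type MEFs or MEFs of the iTal1-2A-GFP line, in which doxycycline induces TAL1 through rtTA and TRE-TAL1 cassettes, and do not say which gave a library. By the paper's methods, transduced MEFs were moved to a hematopoietic medium. Its cytokines were KIT ligand, IL3, GM-CSF, thrombopoietin, erythropoietin, M-CSF, IL6 and IL11, and interleukin-5 is not listed. Those methods do not say whether uFIB was kept in this medium. The other 10 samples came from an embryonic stem cell (ESC) line with a brachyury-GFP reporter: 2 replicates each of ESCs, mesoderm (MES, Bry+ Flk1-), hemangioblast (HB, Bry+ Flk1+), hematopoietic progenitors (HP, CD41+) and macrophages (MAC, CD11b+), all from 1 line. Values are FPKM, fragments per kilobase of transcript scaled to the number mapped in a library, as deposited by the authors. The stage table gives the replicates of a stage as 1 combined value. With 1 value per condition there is no replicate spread: neighbors in any order of levels below could not be tested against each other, condition and library cannot be told apart, and a gene is called higher or lower where log2(FPKM + 1) differed by at least 1 with at least 1 FPKM in the higher sample.

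Eosinophils store cationic proteins in large granules. The granule core is built of major basic protein, the product of *Prg2*, while eosinophil peroxidase, the product of *Epx*, and small ribonucleases of the RNase A superfamily, in mouse the products of the *Ear* genes, lie in the matrix around it. These genes are transcribed at high levels while eosinophil progenitors fill their granules in the bone marrow, in a program that depends on GATA1 and C/EBP factors, and interleukin-5 drives the growth of these cells.

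The targeted factors were checked first. *Tal1* stood at 62.0 FPKM in SL and 58.0 FPKM in SFGL at day 12, against 0.0414 FPKM in uFIB, and *Lmo2* stood at 36.2 FPKM or more in every treated library. The library labelled FGL at day 12 also held *Tal1* at 7.04 FPKM, and the library labelled FGL at day 21 held *Fli1* at 3.35 FPKM, close to the 3.02 FPKM of uFIB. Both values go against the label, so these are called the libraries labelled FGL throughout.

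The *Ear* genes are near-identical copies, and the opening of their coding sequences is shown because it decides how far the 4 rows can be told apart. These are the first 90 coding bases of each, from the GENCODE M21 transcripts (GRCm38), with capitals at each base that differs from *Ear1*.
Ear1: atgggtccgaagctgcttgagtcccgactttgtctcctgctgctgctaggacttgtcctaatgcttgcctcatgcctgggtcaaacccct
Ear2: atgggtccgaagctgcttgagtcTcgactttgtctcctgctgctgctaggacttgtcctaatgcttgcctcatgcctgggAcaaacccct
Ear10: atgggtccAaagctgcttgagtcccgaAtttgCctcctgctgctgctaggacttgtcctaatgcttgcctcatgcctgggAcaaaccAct
Ear6: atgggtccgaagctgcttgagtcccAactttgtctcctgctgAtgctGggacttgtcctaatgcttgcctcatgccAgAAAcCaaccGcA
In this stretch *Ear2* differed from *Ear1* at 2 bases, *Ear10* at 5 and *Ear6* at 10. Over the whole coding sequence *Ear2* and *Ear10* were 97.0% identical, *Ear1* and *Ear2* 95.1%, *Ear1* and *Ear10* 94.4%, and *Ear6* was 87.3% to 87.6% identical to the other three. Of all stretches of 50 bases, the read length of the stage libraries, 57.4% of the *Ear1* transcript, 41.5% of *Ear2* and 39.9% of *Ear10* also occur in another gene, pseudogenes included. For *Ear6* the share was 1.36%, and for *Prg2*, *Prg3* and *Epx* it was 0. Levels of *Ear1*, *Ear2* and *Ear10* are therefore uncertain one by one, whereas *Prg2*, *Prg3* and *Epx* share no stretch of this length and *Ear6* (apart from *Ear7*) shares few.

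The genes lie in 4 places of the genome (GRCm38, the mm10 of the deposited files). *Prg2* (chr2:84980461-84983632) and *Prg3* (chr2:84988215-84993886) are neighbors on the same strand, 4583 bp apart, and their coding sequences were 64.1% identical. *Epx* lies at chr11:87863998-87875536. *Ear1* (chr14:43818765-43819639), *Ear10* (chr14:43922898-43923368) and *Ear2* (chr14:44102654-44103531) form a cluster, and *Ear6* (chr14:51853768-51854642) lies apart from it on the same chromosome. The deposited model of *Ear10* spans 471 bases in 1 exon, against 678 bases in 2 exons of the GENCODE transcript.

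All of the 7 genes were close to absent from untreated MEFs (plot of the members by library). *Prg2* stood at 1.04 FPKM at day 12 and 0.303 FPKM at day 21 in uFIB, which the spacing of low FPKM values puts at about 12 and 5 reads. *Epx*, a heme peroxidase that makes hypobromous acid, stood at 0.285 and 0.0460 FPKM. *Prg3*, which encodes a second, paralogous major basic protein, and *Ear10* were listed at 0 on both days. *Ear2* was the highest of the 7 in uFIB, at 2.74 and 3.28 FPKM, and was the only one at 1 FPKM or more on both days. These uFIB values were the same reference for SL, SFGL and the library labelled FGL, so the comparisons with uFIB are not independent of each other.

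**Figure D1:**
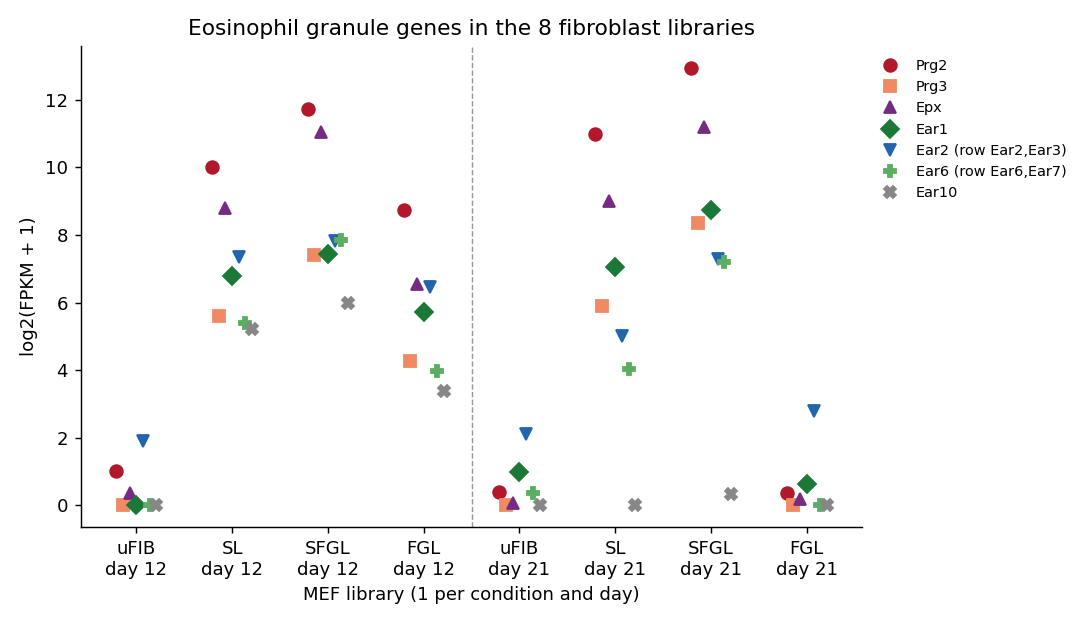
Level of each of the 7 genes, as log2(FPKM + 1), in the 8 single MEF libraries, with day 12 left and day 21 right of the dashed line and 1 symbol per gene. At day 12 all 7 genes stand above uFIB in the other 3 libraries, whereas at day 21 the library labelled FGL lies with uFIB, *Prg2* in SFGL reaches 7901 FPKM and *Ear10* is at the bottom in every library.

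With SL, all of the 7 genes were higher than in uFIB at day 12, when 14.2% of the rows with at least 1 FPKM in either library were. *Prg2* reached 1032 FPKM, *Epx* 447 FPKM and *Prg3* 47.3 FPKM in SL. *Ear2* stood at 162 FPKM, *Ear1* at 110.4 FPKM, *Ear6* at 40.9 FPKM and *Ear10* at 36.2 FPKM. The major basic protein gene was thus the highest of the set, with the 46th highest value of the library. On the log2(FPKM + 1) scale the 7 differences from uFIB ran from 5.22 for *Ear10* to 8.98 for *Prg2* with a median of 5.59, beside a median of -0.03 over all rows.

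With SFGL at day 12, all of the 7 genes were again higher than in uFIB, beside 14.7% of the rows. *Prg2* stood at 3415 FPKM, the 6th highest of the library, and *Epx* at 2109 FPKM, the 20th highest. *Prg3* stood at 167 FPKM, a small share of *Prg2* in this as in every library. *Ear6* reached 232 FPKM, *Ear2* 224 FPKM, *Ear1* 172 FPKM and *Ear10* 62.7 FPKM. The order within the *Ear* family therefore differed between the treatments: *Ear6* came after *Ear2* and *Ear1* in SL and before both in SFGL.

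At day 21 the set split. In SL, 6 of the 7 genes were higher than in uFIB, beside 11.9% of the rows, and in SFGL 6 of the 7, beside 14%. *Prg2* stood at 2049 FPKM in SL, the 9th highest value, and at 7901 FPKM in SFGL, the highest of all 20495 rows. *Epx* stood at 517 FPKM in SL and 2365 FPKM in SFGL, and *Prg3* at 58.8 and 326 FPKM. *Ear1* reached 131 and 428 FPKM, its highest level in each treatment. The gene outside the count was *Ear10*, listed at 0 in SL and at 0.268 FPKM in SFGL, about 1 read.

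Together the 7 genes took up 0.407% of all FPKM at day 12 and 0.729% at day 21 with SL, and 1.34% and 2.68% with SFGL. In uFIB they took up 0.00105% and 0.00132%. In these bulk cultures a larger number of cells that express the genes and more RNA in each such cell cannot be told apart. The summed level of 12 fibroblast markers, none of them at 0 in any MEF library, was 7361 to 9623 FPKM in uFIB, 2099 to 3147 FPKM with SL or SFGL, and 7511 to 8505 FPKM in the libraries labelled FGL. Its part in the levels of the 7 genes was not tested. The highest row of SL at day 21 was *Ngp*, a neutrophil granule gene, at 5816 FPKM.

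The library labelled FGL held the set at day 12 and not at day 21. At day 12 all of the 7 genes were higher than in uFIB, where only 2.96% of the rows were. *Prg2* stood at 424 FPKM, *Epx* at 93.4 FPKM and *Prg3* at 18.4 FPKM. *Ear2* stood at 87.3 FPKM, *Ear1* at 51.6 FPKM, *Ear6* at 14.9 FPKM and *Ear10* at 9.48 FPKM. This is the library with *Tal1* at 7.04 FPKM, and what that *Tal1* level contributes was not tested.

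Set against SL at day 12, and with the uFIB value taken off both, the library labelled FGL held each member at 20.9% (*Epx*) to 53.2% (*Ear2*) of its SL level, with a median of 38.9%. Over all 380 rows that reached 10 FPKM in SL and stood at least 10 times above uFIB there, the median was 10.4%, with 5% of the rows under 4.30% and 5% over 26.2%. The 13 neutrophil granule markers stood at 4.30% to 20.0% of their SL level, below every member. Other genes were within the members' range or just under it: 7 red cell markers stood at 18.3% to 38.9%, *Siglec5* at 30.8% and *Gata2* at 30.0%. The level kept in this library was thus not particular to the granule genes. Against SFGL the 7 genes stood at 4.42% to 38.2%, with a median of 12.4%, beside a median of 9.72% over 390 rows and a range of 6.79% to 21.1% for the neutrophil markers. The red cell markers stood higher there than the members, at 20.5% to 111% with a median of 54.9%.

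At day 21 none of the 7 genes was called higher in the library labelled FGL, beside 0.479% of the rows. *Prg2* stood at 0.295 FPKM, about 2 reads, and *Epx* at 0.1496 FPKM, about 4 reads. *Prg3*, *Ear6* and *Ear10* were listed at 0. *Ear2*, at 5.85 FPKM against 3.28 FPKM in uFIB, was the only member above 1 FPKM, and its difference of 0.68 was within the limit.

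SFGL and SL differ, by their labels, in Fli1 and Gata2. The *Fli1* row stood at 46.7 FPKM in SL and 41.2 FPKM in SFGL at day 12, and the *Gata2* row at 68.8 and 110.0 FPKM, so the first was not higher in SFGL. At day 21 they stood at 34.4 and 27.8 FPKM and at 62.6 and 132 FPKM. The factors common to both treatments also differed at day 21, *Tal1* with 347 FPKM in SL and 119 FPKM in SFGL and *Lmo2* with 150.5 and 128 FPKM, and the part of these levels in the comparison was not tested. FPKM rows do not separate reads of a vector from those of the cells' own gene. At day 12 the 2 libraries were much alike, with 0.229% of the rows called higher and 0.61% called lower in SFGL, yet 4 of the 7 genes were among the 27 rows called higher. *Ear6* was 5.66-fold higher, from 40.9 to 232 FPKM, and *Epx* was 4.72-fold higher, from 447 to 2109 FPKM. *Prg3* was 3.54-fold and *Prg2* 3.31-fold higher. No row of the table stood further above SL than *Ear6*, and *Epx* came next. The 3 near-identical genes of the cluster were within the limit: *Ear10* 1.73-fold, *Ear1* 1.55-fold and *Ear2* 1.39-fold higher.

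At day 21, 6 of the 7 genes were higher in SFGL than in SL, beside 0.773% of the rows, and none was lower, beside 0.437%. *Ear6* was again the row furthest above SL, 9.49-fold, from 15.5 to 147 FPKM. *Prg3* was 5.55-fold, *Ear2* 4.96-fold and *Epx* 4.58-fold higher. *Prg2* was 3.86-fold and *Ear1* 3.26-fold higher. The 4 genes called at day 12 were thus called again at day 21, joined by *Ear1* and *Ear2*, and *Ear10* was under 1 FPKM in both libraries. On both days every member with at least 1 FPKM stood higher in SFGL (plot of SFGL against SL).

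**Figure D2:**
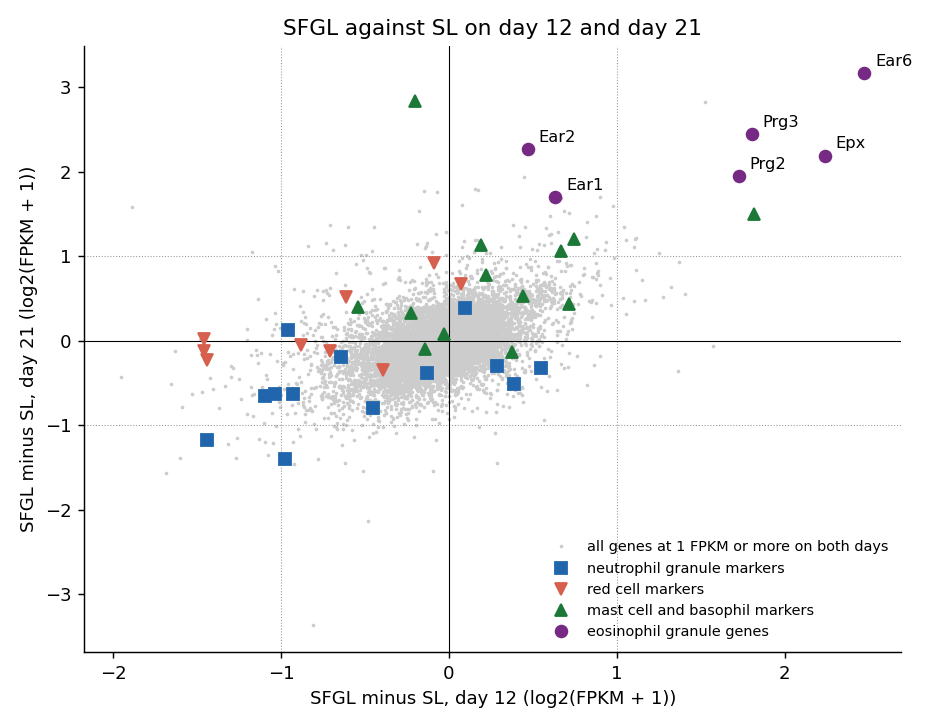
Difference between SFGL and SL in log2(FPKM + 1) at day 12 (horizontal) and at day 21 (vertical) for all genes at 1 FPKM or more on both days (gray) and for the genes of 4 lists, 1 point per gene, with dotted lines at the limit of 1. The eosinophil granule genes lie at the upper right, led by *Ear6* at 2.47 and 3.17, and the neutrophil granule markers lie mostly at the lower left. *Ear10* is not drawn because it was under 1 FPKM at day 21.

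The other lists show what did and did not move alongside. Among the 13 neutrophil granule markers none was called higher in SFGL on either day, beside 0.229% and 0.773% of all rows. *Ltf*, *S100a8* and *S100a9* were called lower at day 12, beside 0.61%, and *Ltf* and *Camp* at day 21, beside 0.437%. These are named because they make up the whole count. The median difference was -0.64 and -0.51. At day 12 the list went both ways: *Mpo*, *Prtn3*, *Elane* and *Cebpe* stood higher in value in SFGL, within the limit, and the other markers lower. *Prtn3* stood at 618 FPKM in SL and 808 FPKM in SFGL, and *Elane* at 497 and 607 FPKM. The ratio of *Epx* to *Mpo*, the peroxidase of neutrophil granules and chosen here after the values were seen, was 0.767 at day 12 and 1.44 at day 21 with SL, and 2.47 and 8.22 with SFGL. *Mpo* itself stood at 582 FPKM in SL and 853 FPKM in SFGL at day 12, and at 359 and 288 FPKM at day 21. *Epx* thus exceeded *Mpo* in SFGL on both days, and in SL at day 21 only.

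Of 15 markers of mast cells and basophils, 14 were at 1 FPKM or more in SFGL or SL. At day 12 only *Cma1*, a mast cell chymase, was higher in SFGL, from 4.54 to 18.5 FPKM, beside 0.229% of all rows. At day 21 there were 5, beside 0.773%: *Tpsb2*, *Cma1*, *Prss34*, *Hdc* and *Gata2*, the last of which is one of the factors added. *Prss34*, a basophil protease, stood at 117 FPKM in SL and 272 FPKM in SFGL, and *Mcpt8*, another one, at 663 and 620 FPKM. The summed level of the list ran from 1209 FPKM in SL to 1372 FPKM in SFGL at day 12 and from 1012 to 1351 FPKM at day 21. The sum of the 7 genes changed more, from 1875 to 6381 and from 2802 to 11321 FPKM. *Mcpt8* held the largest part of the list's sum, while *Tpsb2* stood at 3.57 FPKM in SL and 31.8 FPKM in SFGL at day 21. Genes of this list, too, were thus higher in SFGL, which was not particular to the 7 genes. No defining marker of this list was at 0 in SL or SFGL, and the part of mast cells and basophils in the levels of the 7 genes was not tested. Red cell markers were lower in SFGL at day 12 for 3 of 9, beside 0.61% of all rows. They showed no call at day 21, beside 0.773% of all rows higher and 0.437% lower.

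Between day 12 and day 21 the members went separate ways. In SFGL, *Prg2* was 2.31-fold and *Ear1* 2.49-fold higher at day 21, 2 of the 7 genes beside 2.2% of the rows, and *Ear10* was the 1 member lower, beside 2.75%. *Epx* was almost level, 1.12-fold higher. In SL none of the 7 was called higher, beside 1.76% of the rows, although *Prg2* came close with a 1.99-fold rise in value, and 3 were lower, beside 2.93%: *Ear10*, *Ear2* (5.19-fold) and *Ear6* (2.64-fold). In the library labelled FGL, 7 of 7 were lower, beside 4.06%, and none was higher, beside 3.24%. In uFIB none was called in either direction, beside 1.87% higher and 1.27% lower.

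The *Ear* rows changed their make-up with the day more than their sum. In SFGL the summed level of the 4 rows was 690 FPKM at day 12 and 729 FPKM at day 21, while the share of *Ear1* in it went from 24.9% to 58.7%, that of *Ear2* from 32.5% to 21.2% and that of *Ear6* from 33.6% to 20.1%. In SL the sum went from 349 to 178 FPKM and the share of *Ear1* from 31.6% to 73.8%. In both treatments, then, *Ear1* made up most of the *Ear* level at day 21 and 31.6% of it or less at day 12. The 4 rows summed were chosen as a quantity after the values were seen, because *Ear1*, *Ear2* and *Ear10* share so many stretches.

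**Figure D3:**
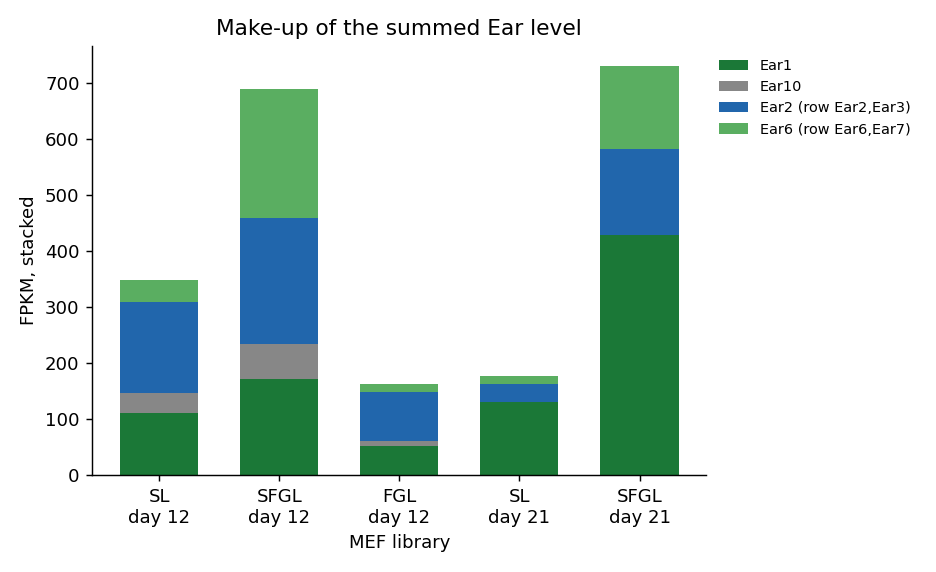
FPKM of the 4 *Ear* rows stacked for the 5 MEF libraries in which they were above uFIB. *Ear10* (gray) is visible at day 12 and gone at day 21, and *Ear1* (dark green) takes 73.8% of the bar in SL and 58.7% in SFGL at day 21.

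*Ear10* changed most of the 7 between the days in SL and in SFGL, and least of the 7 in the library labelled FGL. It stood at 36.2 FPKM in SL, 62.7 FPKM in SFGL and 9.48 FPKM in the library labelled FGL at day 12, about 271, 341 and 51 reads, and at 0, 0.268 and 0 FPKM at day 21. No row fell more than *Ear10* between the days in SL or in SFGL. By the estimate from the steps of low values, 1 read was worth 0.344 FPKM for *Ear10* in SL at day 21. The part of depth in these values was not tested. The summed level of *Ear1* and *Ear10* went from 147 to 131 FPKM in SL and from 234 to 428 FPKM in SFGL. Reads of *Ear10* also match *Ear2* in 27.7% and *Ear1* in 17.8% of its stretches, and how such reads were assigned in the libraries of each day was not tested.

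The ratios among the unique genes were uneven. *Prg2* stood 21.8 times above *Prg3* in SL, 20.4 times in SFGL and 23.1 times in the library labelled FGL at day 12, and 34.9 times in SL and 24.2 times in SFGL at day 21. *Prg2* stood 1.62 (SFGL) to 4.54 times (the library labelled FGL) above *Epx* at day 12, and 3.96 and 3.34 times in SL and SFGL at day 21. The paralogous pair on chromosome 2 therefore kept its ratio between 20.4 and 23.1 at day 12 across libraries whose *Prg2* level ran from 424 to 3415 FPKM, while the ratio of *Prg2* to *Epx* moved more.

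The genes next to the members varied in level. *P2rx3*, 2666 bp beyond *Prg3*, stood at 0.287 to 1.81 FPKM in the 8 libraries, and *Slc43a3*, upstream of *Prg2*, at 14.4 to 36.9 FPKM. Both were higher with SL and SFGL than in uFIB on both days, *Slc43a3* past the limit at day 12 only. In uFIB, SL and SFGL, *P2rx3* stood at 0.520, 1.23 and 1.81 FPKM at day 12 and at 0.287, 0.631 and 1.57 FPKM at day 21. *Slc43a3* stood at 14.4, 33.3 and 29.9 FPKM and then at 21.7, 36.9 and 34.3 FPKM. *Lpo*, which encodes lactoperoxidase and lies within 50 kb of *Epx*, reached at most 0.0776 FPKM, and *Mks1*, 319 bp from *Epx*, at most 3.41 FPKM. *Mks1* went the other way, lower with SL and SFGL than in uFIB on both days. *Ssrp1*, beyond *P2rx3*, stood at 52.7 to 88.5 FPKM and at 65.6 and 52.7 FPKM in uFIB. Around *Ear6*, *Mettl17* stood at 5.02 to 8.08 FPKM in the 8 libraries and *AY358078* at 0.0390 FPKM or less. *Slc39a2*, a zinc transporter gene 38968 bp away, also went in the direction of the members, at a low level. It went from 0.0256 FPKM in uFIB to 1.64 FPKM in SL, 1.60 FPKM in SFGL and 0.597 FPKM in the library labelled FGL at day 12. At day 21 the same 4 conditions held it at 0.251, 0.929, 0.761 and 0.0873 FPKM. It stood at 27.6 FPKM in MAC and under 1 FPKM in the other stages. The 3 olfactory receptor genes near *Epx* were listed at 0. *Ang3*, within 50 kb of *Ear10*, reached at most 0.293 FPKM.

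Promoters are shown for 4 members, 2 that moved alike at 2 loci and 2 *Ear* genes that moved differently in SFGL. RefSeq promoters (GRCm38.p6, 250 bases before to 50 after the start) were found for 6 of the 7 genes, *Prg2* being the exception. Capitals mark GATAA, the core of a GATA site, on either strand, here as TTATC.
Prg3 (chr2:84987965-84988264, plus strand): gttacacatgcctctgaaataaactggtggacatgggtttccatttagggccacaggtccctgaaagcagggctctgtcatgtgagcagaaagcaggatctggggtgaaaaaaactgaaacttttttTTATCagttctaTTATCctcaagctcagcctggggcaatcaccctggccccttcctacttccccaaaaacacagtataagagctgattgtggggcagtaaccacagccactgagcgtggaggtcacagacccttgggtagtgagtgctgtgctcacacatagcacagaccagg
Epx (chr11:87875487-87875786, minus strand): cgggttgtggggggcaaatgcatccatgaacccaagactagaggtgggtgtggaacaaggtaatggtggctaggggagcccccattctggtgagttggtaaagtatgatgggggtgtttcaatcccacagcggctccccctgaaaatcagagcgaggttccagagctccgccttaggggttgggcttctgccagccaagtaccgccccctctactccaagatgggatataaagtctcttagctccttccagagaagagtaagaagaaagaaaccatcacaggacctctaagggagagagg
Ear1 (chr14:43819590-43819889, minus strand): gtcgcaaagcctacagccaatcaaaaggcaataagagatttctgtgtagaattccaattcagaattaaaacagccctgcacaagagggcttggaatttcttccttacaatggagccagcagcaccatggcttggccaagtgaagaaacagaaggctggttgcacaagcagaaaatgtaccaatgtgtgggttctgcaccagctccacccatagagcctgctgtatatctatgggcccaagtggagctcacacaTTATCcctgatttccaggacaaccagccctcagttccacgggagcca
Ear6 (chr14:51853518-51853817, plus strand): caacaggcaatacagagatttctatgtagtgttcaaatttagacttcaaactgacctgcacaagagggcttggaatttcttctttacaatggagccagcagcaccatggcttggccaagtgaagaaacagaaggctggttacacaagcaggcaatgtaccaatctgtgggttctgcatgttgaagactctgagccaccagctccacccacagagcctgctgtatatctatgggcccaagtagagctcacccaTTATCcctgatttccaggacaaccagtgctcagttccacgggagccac
*Prg3* held GATAA at 2 places, starting 123 and 111 bases before its start, and each of the 4 *Ear* promoters held it once, within 6 bases after the start. *Epx* held none of it in this window. Of all 32851 mouse promoters of this length, 25.4% held GATAA and 5.27% held it at least 2 times. TTGCNNAA, a form of the C/EBP site, was found in *Ear1*, *Ear2* and *Ear10*, 90 to 94 bases before the start, and in 10.8% of all promoters, but not in *Ear6*, *Prg3* or *Epx*. *Epx* alone held TATAAA, 24 bases before its start, as 13.6% of all promoters did, and GAGGAA, the core of a PU.1 site, was in none of the 6 and in 28.3% of all. The *Ear1* and *Ear2* promoters were 97.0% identical, and *Ear6* was 79.0% to 80.9% identical to the other *Ear* promoters. These matches are letters in a window and say nothing of binding.

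Relatives of the *Ear* genes in the RNase A family were mostly low. Of 10 rows besides the members, *Rnase12* was the 1 row called higher in SFGL than in SL at day 12, at 17.7 against 6.73 FPKM. None was at day 21. Of all rows, 0.229% were called higher at day 12 and 0.773% at day 21. *Ear11* reached at most 2.49 FPKM, *Ear5* at most 0.709 FPKM and *Ear4* was listed at 0 in every library. *Rnase6*, known from macrophages, reached 5.05 FPKM in SFGL at day 21. *Rnase4* and *Ang*, which share 1 row, were highest in uFIB at day 12, at 149 FPKM, opposite to the *Ear* members. Within the family, levels above 20 FPKM in SL or SFGL were thus found for the 4 members and the row of *Rnase4* and *Ang*.

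Genes for receptors and signaling of eosinophils were checked as the label implies these cells. *Il5ra*, the receptor subunit that binds interleukin-5, stayed at or under 0.273 FPKM in every MEF library, and *Ccr3*, the eotaxin receptor, at or under 1.58 FPKM. The row named *Siglec5* (chr7:43351341-43359470) covers the RefSeq gene *Siglecf*, which encodes the eosinophil lectin Siglec-F. It stood at 13.2 FPKM in SL, 24.2 FPKM in SFGL and 4.07 FPKM in the library labelled FGL at day 12, and at 16.3, 44.9 and 0 FPKM at day 21. Defining surface genes of mature eosinophils were therefore uneven, with Siglec-F present and *Il5ra* near 0 beside very high granule genes, and the cultures are not called eosinophils here.

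Of the 23 rows of that list, 16 to 19 had at least 1 FPKM in SL, SFGL or the matching uFIB library. Against uFIB at day 12, 12 were higher and 1 lower with SL, and 14 higher and 1 lower with SFGL. Of all rows, 14.2% and 14.7% were higher there and 13.5% and 17% lower. At day 21 it was 10 higher and 2 lower with SL, and 13 higher and 2 lower with SFGL. Of all rows, 11.9% and 14% were higher there and 12.3% and 15.9% lower. The lower ones were *Ltc4s*, the leukotriene C4 synthase, on both days (26.4 FPKM in uFIB, 12.4 FPKM in SL and 8.73 FPKM in SFGL at day 12) and *Ccl11* at day 21. *Csf2rb*, the beta chain shared by the receptors for GM-CSF, interleukin-3 and interleukin-5, stood at 228 FPKM in SL and 272 FPKM in SFGL at day 12. *Csf2ra* stood at 43.2 and 64.6 FPKM and *Il3ra* at 17.7 and 26.0 FPKM. Between SFGL and SL, *Alox15*, a lipoxygenase, was the only one called higher at day 12, at 10.5 against 4.35 FPKM, beside 0.229% of all rows. *Siglec5*, *Csf2rb2*, *Il1rl1* and *Alox15* were called higher at day 21, beside 0.773%. *Il5* itself stayed under 1 FPKM in every MEF library.

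Regulators of the eosinophil lineage were mostly higher than in uFIB. Of 14 rows, 9 were called higher and none lower at day 12 with either treatment, beside 14.2% (SL) and 14.7% (SFGL) of all rows higher. At day 21, 8 with SL and 9 with SFGL were higher and 1 lower, beside 11.9% and 14% of all rows higher and 12.3% and 15.9% lower. The lower one was *Cebpa*, at 27.4 FPKM in SL and 26.0 FPKM in SFGL against 78.8 FPKM in uFIB, and *Irf8*, known for monocytes, stayed at or under 0.253 FPKM in both treatments. *Gata1* stood at 19.9 FPKM in SL and 23.4 FPKM in SFGL at day 12, and at 29.9 and 49.5 FPKM at day 21. *Cebpe*, a C/EBP factor of late granule formation, stood at 143 and 153 FPKM and then at 88.6 and 116 FPKM. *Sfpi1*, which encodes PU.1, stood at 156 and 171 FPKM and then at 81.6 and 102 FPKM. Of the 14 rows of this list none was higher in SFGL than in SL at day 12, beside 0.229% of all rows. *Gata2* was the 1 row higher at day 21, at 132 against 62.6 FPKM, beside 0.773% of all rows. In the library labelled FGL at day 12, which held the members at up to 53.2% of SL, *Gata1* stood at 3.69 FPKM, *Cebpe* at 14.6 FPKM and *Sfpi1* at 16.9 FPKM.

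Among the 8 libraries, the genes whose pattern was most like the mean of *Prg2*, *Prg3* and *Epx* on the log2(FPKM + 1) scale were *Csf2rb2* (Pearson's r = 0.992), *Siglec5* (0.991), *Prss34* (0.990), *Spns3* (0.988) and *Nkg7* (0.987). For the mean of the *Ear* members they were *Nktr* (0.982), *Nkg7* (0.971), *Gapt* (0.969), *Gm5416* (0.966) and *Laptm5* (0.965). *Nktr* has this shape with a narrow range, from 18.5 to 26.4 FPKM, whereas *Csf2rb2* went from 0.0631 to 191 FPKM. These values describe 8 libraries that fall into 2 groups, 3 with nearly none of the members and 5 with all or most of them, and share the same culture system.

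Among the 5 stages of differentiation from ESCs described here, the 7 genes reached 1 FPKM only in the last (plot of the members by stage). In ESC, MES, HB and HP none did, and the highest single value was 0.147 FPKM for *Epx* in ESC. The paper's hemogenic endothelium stage, between HB and HP, has no sample here and was not looked at. None was therefore called higher in MES against ESC, HB against MES or HP against HB, where 6.95%, 2.53% and 8.88% of the rows were. In MAC, *Prg2* stood at 29.6 FPKM, *Ear2* at 5.22 FPKM and *Ear6* at 1.39 FPKM. These 3 of the 7 were called higher in MAC than in HP, beside 33.4% of the rows. *Prg3* (0.503 FPKM), *Epx* (0.407 FPKM) and *Ear1* (0.205 FPKM) were listed under 1 FPKM and *Ear10* at 0.

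**Figure D4:**
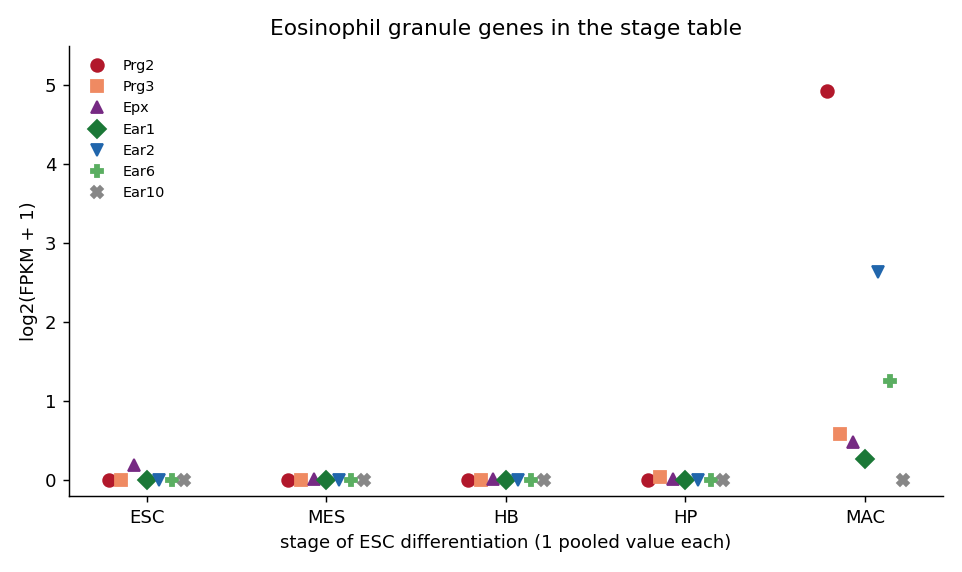
Level of each of the 7 genes, as log2(FPKM + 1), in the 5 stages of ESC differentiation, with 1 combined value per stage. All genes lie near 0 up to HP, and in MAC *Prg2* (29.6 FPKM), *Ear2* (5.22 FPKM) and *Ear6* (1.39 FPKM) stand out.

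The set therefore had another make-up in MAC than in the reprogrammed MEFs, read within each table. *Prg2* stood 72.6 times above *Epx* in MAC and 1.62 to 4.54 times above it in the 5 MEF libraries that held both. *Ear2* made up 76.7% of the *Ear* sum in MAC and *Ear1* 3.01%. MAC held 13 of 18 macrophage markers higher than in HP, beside 33.4% of the rows, with *Emr1* at 353 FPKM and *Ccl6* at 4727 FPKM. The rest of that list, *Marco*, *Cd163*, *Chi3l3*, *Arg1* and *Retnla*, stood at 0.401 FPKM or less in MAC. Markers of eosinophils and mast cells moved there as well, *Ccr3* to 6.66 FPKM and *Cpa3* to 18.7 FPKM, with *Il5ra* at 0.0732 FPKM and *Mcpt8* at 0.225 FPKM, and their part in the level of *Prg2* was not tested.

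Low values of near-identical genes in the stage table need a caution that can be measured. There the authors kept uniquely aligned reads only. *Gapdh*, which has many processed copies, stood at 0.171 to 1.57 FPKM in the stages, against 952 to 2667 FPKM in the MEF table. *Actb* stood at 1599 to 4112 FPKM in the stages. For *Ear1*, *Ear2* and *Ear10*, 39.9% to 57.4% of the stretches occur elsewhere, and how many of their reads were left out of the stage values was not tested. *Prg2*, *Prg3* and *Epx* are unique over their whole transcripts, so their order in MAC does not rest on shared stretches.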

How the data were processed

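RNA-seq was measured in 8 single MEF libraries and in 2 replicates of each of 5 ESC-derived stages. The authors deposited FPKM values, computed with Cufflinks for mm10: per gene and library for the MEFs (TopHat), and per TSS with the replicates combined for the stages, where SOLiD reads were aligned with SHRiMP, uniquely aligned reads kept and duplicates removed with Picard. The labels of the ESC samples name Bowtie and HOMER. Versions are not given in the sources used here. In the stage table, 1 further column of values was not used.

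TSS rows were summed per gene, and the tables, normalized separately, were compared only within themselves. With no replicate columns, the planned limma fit was not run and no p-value is given. FPKM keep no depth, but low values fell into steps: with 210 bases taken off transcript lengths, 82.2% to 86.0% of the values under 4.5 reads lay within 0.15 of whole reads, and depth relative to uFIB at day 12 ran from 0.587 to 1.56. Read numbers given are estimates from these steps. Sequences came from GENCODE M21 and RefSeq tables. Scripts used Python 3.11.15, NumPy 2.4.6, pandas 2.3.3 and matplotlib 3.10.9 and were tested on simulated data.

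The members and gene lists were chosen with earlier results of these data known. The rule for naming took all members and allowed any gene of the family, surface and regulator lists, of which a selection is named. From other lists it took at most the 3 highest in SL at day 21, the 3 highest in MAC and defining markers at 0. It also took neighbors within 50 kb and the 5 genes most like the members by Pearson's r among genes reaching 10 FPKM. Named outside this rule were genes that complete a count (*Ltf*, *Camp*, *Cma1* and *Tpsb2*), *Mpo*, *Prtn3*, *Elane*, *Il4*, *Il13*, *Il33*, *Gapdh* and *Actb*. Alternatives were other pseudocounts, minimums, a 4-fold limit, upper-quartile scaling, the mean of both uFIB libraries, the highest TSS row per gene, Spearman's rho, and, chosen after seeing the data, the likeness without the libraries labelled FGL and the 4 *Ear* rows summed.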

Additional observations from a re-analysis of the deposited data

Results flagged for a closer look

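The change of 2 members from day 12 to day 21 passed the limit in opposite directions in 2 treated conditions. *Prg2* rose in value by 1.21 on the log2(FPKM + 1) scale in SFGL and fell by 8.36 in the library labelled FGL, a gap of 9.57. *Ear1* changed by 1.31 in SFGL and fell by 5.08 in the library labelled FGL, a gap of 6.40. Each side is 1 library per day, so the difference between the conditions was not tested.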

How the results depend on the processing

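The counts of members called were recomputed under 144 combinations of a comparison, a direction and another setting, and 137 stayed within 1.5 times the reported count. The 137 include the comparisons of stages before MAC, where no member reached 1 FPKM and the count had little room to move. With a fold limit of 4, the count higher in SFGL than in SL at day 12 was 2 (*Epx* and *Ear6*) and that higher at day 21 than at day 12 in SFGL was 0. With libraries scaled to the same upper quartile, 1 member was higher at day 21 than at day 12 in SL (*Prg2*) and 1 in uFIB. With a pseudocount of 0.1 or of 0.001, 1 member was lower at day 21 in uFIB. With a minimum of 10 FPKM, 1 member was higher in MAC than in HP. In the comparisons between MEF conditions, single members with at least 1 FPKM kept their sign under every setting tried, and 5 such results lost their call. Single members were not followed in this way between days or between stages. The likeness lists were less stable: with Spearman's rho 0 of the 5 genes named stayed in either list, and without the libraries labelled FGL 1 stayed for *Prg2*, *Prg3* and *Epx* (*Spns3*) and 0 for the *Ear* members; with a minimum of 1 FPKM 5 and 3 stayed. The *Ear* rows summed were 1.98-fold higher in SFGL than in SL at day 12 and 4.11-fold at day 21.

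No paired analysis was possible because the stage table holds 1 combined value per stage and the MEF libraries carry no replicate numbers to pair. For the same reason no replicate was left out. With 1 library per condition and no counts, there is no spread to set a difference against.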

Other observations

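Untreated MEFs at day 21 held 7 of the 13 neutrophil granule markers higher than at day 12, beside 1.87% of the rows. *S100a8* stood at 126 FPKM against 2.97 FPKM, while no eosinophil granule gene was called and *Prg2* stood at 0.303 FPKM. The library labelled FGL at day 21 held *S100a8* at 5.56 FPKM and *Ear2* at 5.85 FPKM.

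Of the genes of type 2 cytokine signaling, which acts on eosinophils, *Il4* and *Il13* were low, whereas *Il33* was highest in uFIB on both days. *Il33* stood at 33.7 FPKM in uFIB, 17.1 FPKM in SL and 13.5 FPKM in SFGL at day 12, and at 49.9, 6.39 and 8.24 FPKM at day 21. *Il4* stood at 2.71 FPKM in SL and 2.94 FPKM in SFGL at day 12 and was listed at 0 in uFIB, and *Il13* stood at 3.42 and 0.962 FPKM at day 12 and at 2.70 and 6.69 FPKM at day 21. *Ccl11*, the eotaxin of fibroblasts, was lower in SL and SFGL than in uFIB at day 21, at 3.74 and 3.01 FPKM against 24.3 FPKM.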
